A study of Mus musculus with 18 samples.

Results

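The anaphase-promoting complex or cyclosome (APC/C) is the ubiquitin ligase named in the title of the study, and 31 genes of its system were followed here through the postnatal mouse spinal cord. They were its 14 core subunits, 2 activators, 2 E2 enzymes, 8 inhibitors and spindle checkpoint genes, 3 substrates, and 2 enzymes that oppose it or the kinases of mitosis. Members were found by gene symbol, including symbols joined with another in a single row, and all 31 were present, as 33 of 58570 rows of the table. Skp2 and Usp37 each had a second, minor row with few fragments. Anapc15 shared its row with the small RNA gene Gm22655, and Cdc14b with Aaed1.

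Whole spinal cords came from the SMNΔ7 strain, a mouse model of spinal muscular atrophy (SMA), a motor neuron disease caused by too little of the survival motor neuron protein. Homozygotes (SMA) and heterozygotes (control) were compared at postnatal days 2, 6 and 10 (P2, P6 and P10), which gave 6 groups of 3 labelled libraries each, 18 in all. Homozygotes of this strain lack mouse Smn1 in every cell and carry human transgenes for the protein, so the loss is not restricted to motor neurons, and heterozygotes keep 1 working copy of Smn1. The strain is bred with the transgenes in both genotypes, which the labels do not state for these mice. Stranded libraries of total RNA were made after ribosomal RNA removal, and the authors combined the libraries of a group into 1 level per gene. That level is in FPKM, a count of fragments divided by transcript length and by depth, and comes with a model interval. No standard deviation over libraries can be given, and every error below comes from that interval or from the spread between groups.

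As background, the APC/C attaches ubiquitin chains to proteins and so sends them to the proteasome. A scaffold carries a catalytic pair, an arc of repeat proteins binds an activator, and the activator chooses the substrate: Cdc20 acts in early mitosis under the control of the spindle checkpoint, and Fzr1 (Cdh1) acts from late mitosis through G1. Neurons have left the cell cycle and keep the Fzr1-bound form, which is known for limiting axon growth and for turnover of synaptic and metabolic proteins. Cdc20, Ube2c and checkpoint genes such as Bub1b and Ttk are, by contrast, transcribed mainly in dividing cells.

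Promoters of both kinds of gene are printed here to show a pair of elements known from mitotic genes. The stretches are the 250 bases before the annotated start in RefSeq GRCm38.p6, 5′ to 3′ on the gene's own strand, for both activators, the E2 enzyme of dividing cells and the most abundant core subunit. Capitals mark TTTGAA, the cell cycle genes homology region (CHR), and CCAAT, the CCAAT box, each also as its reverse complement TTCAAA or ATTGG. They are chr4:118437344-118437593 (minus strand) for Cdc20, chr2:164769679-164769928 (plus strand) for Ube2c, chr10:81378371-81378620 (minus strand) for Fzr1 and chr5:122821343-122821592 (minus strand) for Anapc5.
Cdc20: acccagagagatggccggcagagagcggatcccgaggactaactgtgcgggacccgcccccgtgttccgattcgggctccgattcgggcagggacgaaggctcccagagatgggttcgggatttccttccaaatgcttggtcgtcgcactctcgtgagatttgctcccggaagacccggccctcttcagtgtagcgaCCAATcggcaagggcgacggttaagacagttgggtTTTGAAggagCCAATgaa
Ube2c: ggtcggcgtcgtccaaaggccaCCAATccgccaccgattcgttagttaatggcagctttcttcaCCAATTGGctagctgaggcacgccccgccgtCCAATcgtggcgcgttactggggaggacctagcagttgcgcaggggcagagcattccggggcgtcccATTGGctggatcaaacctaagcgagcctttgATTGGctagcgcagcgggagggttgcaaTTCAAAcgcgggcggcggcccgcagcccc
Fzr1: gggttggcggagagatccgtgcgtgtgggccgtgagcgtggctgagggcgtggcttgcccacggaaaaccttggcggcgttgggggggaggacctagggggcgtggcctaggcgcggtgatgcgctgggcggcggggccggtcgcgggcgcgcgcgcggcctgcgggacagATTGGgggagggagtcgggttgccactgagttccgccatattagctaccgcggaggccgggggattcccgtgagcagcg
Anapc5: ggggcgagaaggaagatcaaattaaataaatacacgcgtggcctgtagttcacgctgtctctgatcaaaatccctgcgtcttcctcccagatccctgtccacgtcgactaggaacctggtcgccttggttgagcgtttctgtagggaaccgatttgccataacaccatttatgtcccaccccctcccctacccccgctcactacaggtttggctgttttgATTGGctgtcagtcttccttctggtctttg
Counting back from the start as base -1, Cdc20 held a CHR at -18 between CCAAT boxes at -53 and -8. Ube2c held a CHR at -29 and 6 CCAAT boxes between -228 and -57, of which those at -186 and -183 overlap as a palindrome. Fzr1 held a single CCAAT box at -79 and Anapc5 one at -30, and neither held a CHR. Windows of 300 bases, from 250 before to 50 after the start, were held for 29 of the 31 genes, without Cdc23 and Gmnn. Both elements stood in the windows of 7 of these 29 genes (24.1%), which were Cdc20, Ube2c, Fbxo5, Bub1b, Bub3, Ttk and Skp2, against 8.97% of 27025 genes. Among the core subunits 0 of 13 held both, and 2 of 13 held a CHR (Anapc7 and Anapc16). A CHR alone or with a CCAAT box was found in 9 of 29 genes and in 20.2% of all genes, and a CCAAT box in 14 of 29 and in 41.1%. These are matches of letters and not sites shown to be bound.

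Checks of the labels touch every comparison. Smn1 lay at FPKM 2.70, 4.46 and 3.54 in the controls at P2, P6 and P10. In the SMA groups it was at 0.0210 at P2, was listed at 0 at P6, and reached 2.82 at P10, which is 79.8% of the control level. That share rests on 20.2 estimated fragments in SMA and 25.9 in control, and its log2 ratio of -0.33 had a standard error of 1.28. Below, SMA stands for the groups so labelled, and at P10 that label goes with a near-control level of Smn1. Estimated fragments were 6881671 to 7386338 per group. The summed level of 4 Hox genes of the spinal cord lay between FPKM 77.04 and 90.1 and that of 5 neuronal markers between 554 and 616. The tissue thus carried these markers in each group. The 5 motor neuron markers summed to 42.2, 38.7 and 42.1 in the controls at P2, P6 and P10. In the SMA groups they summed to 34.6, 39.1 and 30.7. The summed level of 7 markers of mature oligodendrocytes was 233, 1664 and 7182 in the controls at P2, P6 and P10 and 3246, 1871 and 3972 in the SMA groups. In SMA it was thus higher at P2 than at P6, with 7 of 7 markers above control at P2 and 7 of 7 below it at P10. Summed markers of immature neurons ran from 972 to 437 over the control ages and from 806 to 629 over the SMA ages. Their part in the values below was not tested, and in whole tissue fewer cells of a type and less RNA per cell cannot be told apart.

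Core subunits kept nearly level across groups. Their mean levels over the 6 groups ran from FPKM 5.50 for Anapc16 to 67.8 for Anapc5. Other members lay within that range, such as Ube2s at 34.9 and Bub3 at 17.2. Among the core subunits the scaffold came highest. Anapc5, a platform subunit, was at FPKM 78.6, 61.4 and 59.8 in control at P2, P6 and P10 and at 69.6, 70.6 and 66.5 in SMA. Anapc1, the largest scaffold subunit, was at 34.1, 32.0 and 32.3 in control and at 36.2, 33.2 and 29.1 in SMA. Anapc4, the third platform subunit, was at 26.3, 25.2 and 26.4 in control and at 30.9, 25.98 and 29.5 in SMA. In FPKM, Anapc4 was higher in SMA at all 3 ages, by 0.04 to 0.23 on the log2 scale, but from estimated fragments the ratio at P6 was -0.01.

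The catalytic pair stood lower than the scaffold. Anapc2, the cullin subunit, was at FPKM 9.65, 11.5 and 12.9 in control at P2, P6 and P10 and at 12.9, 9.80 and 12.4 in SMA. Anapc11, the RING subunit that holds the E2 enzyme, was at 8.27, 6.19 and 7.54 in control and at 7.39, 6.78 and 6.33 in SMA. They thus ran in opposite directions in the genotypes at P2, Anapc2 lower in control and Anapc11 lower in SMA. Anapc2 had the greatest difference of any core subunit at P2, 0.42 on the log2 scale with a standard error (SE) of 0.66. Anapc10, which helps to bind the degron of the substrate, was lowest at P10 in both genotypes, at 13.3, 14.1 and 10.4 in control and at 13.2, 13.1 and 10.7 in SMA.

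The repeat proteins of the arc, to which activators bind, differed in level among themselves. Cdc16 was at FPKM 27.5, 23.2 and 20.5 in control at P2, P6 and P10 and at 24.0, 24.4 and 22.2 in SMA. Cdc27, the subunit that docks the tail of the activator, was at 20.5, 18.6 and 19.1 in control and at 18.9, 20.2 and 20.6 in SMA. Its highest group exceeded its lowest by only 1.10 times, less than for any other member. Cdc23 was at 17.8, 15.4 and 18.3 in control and at 16.7, 18.4 and 15.6 in SMA. Anapc7, the vertebrate repeat subunit, was at 7.97, 6.83 and 7.23 in control and at 7.82, 6.91 and 7.43 in SMA, so that its genotypes differed by at most 0.04 on the log2 scale at any age. Among the small subunits that steady the arc, Anapc13 lay between 15.3 and 18.97, Cdc26 between 11.3 and 13.96 and Anapc16 between 4.83 and 5.90. Anapc15, which is needed to release the checkpoint complex, was at 6.85, 6.11 and 5.12 in control and at 7.06, 5.72 and 5.57 in SMA, falling in value with age in both. Its interval reached 0 in each group, and its row spanned 4 other protein-coding genes.

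**Figure D1:**
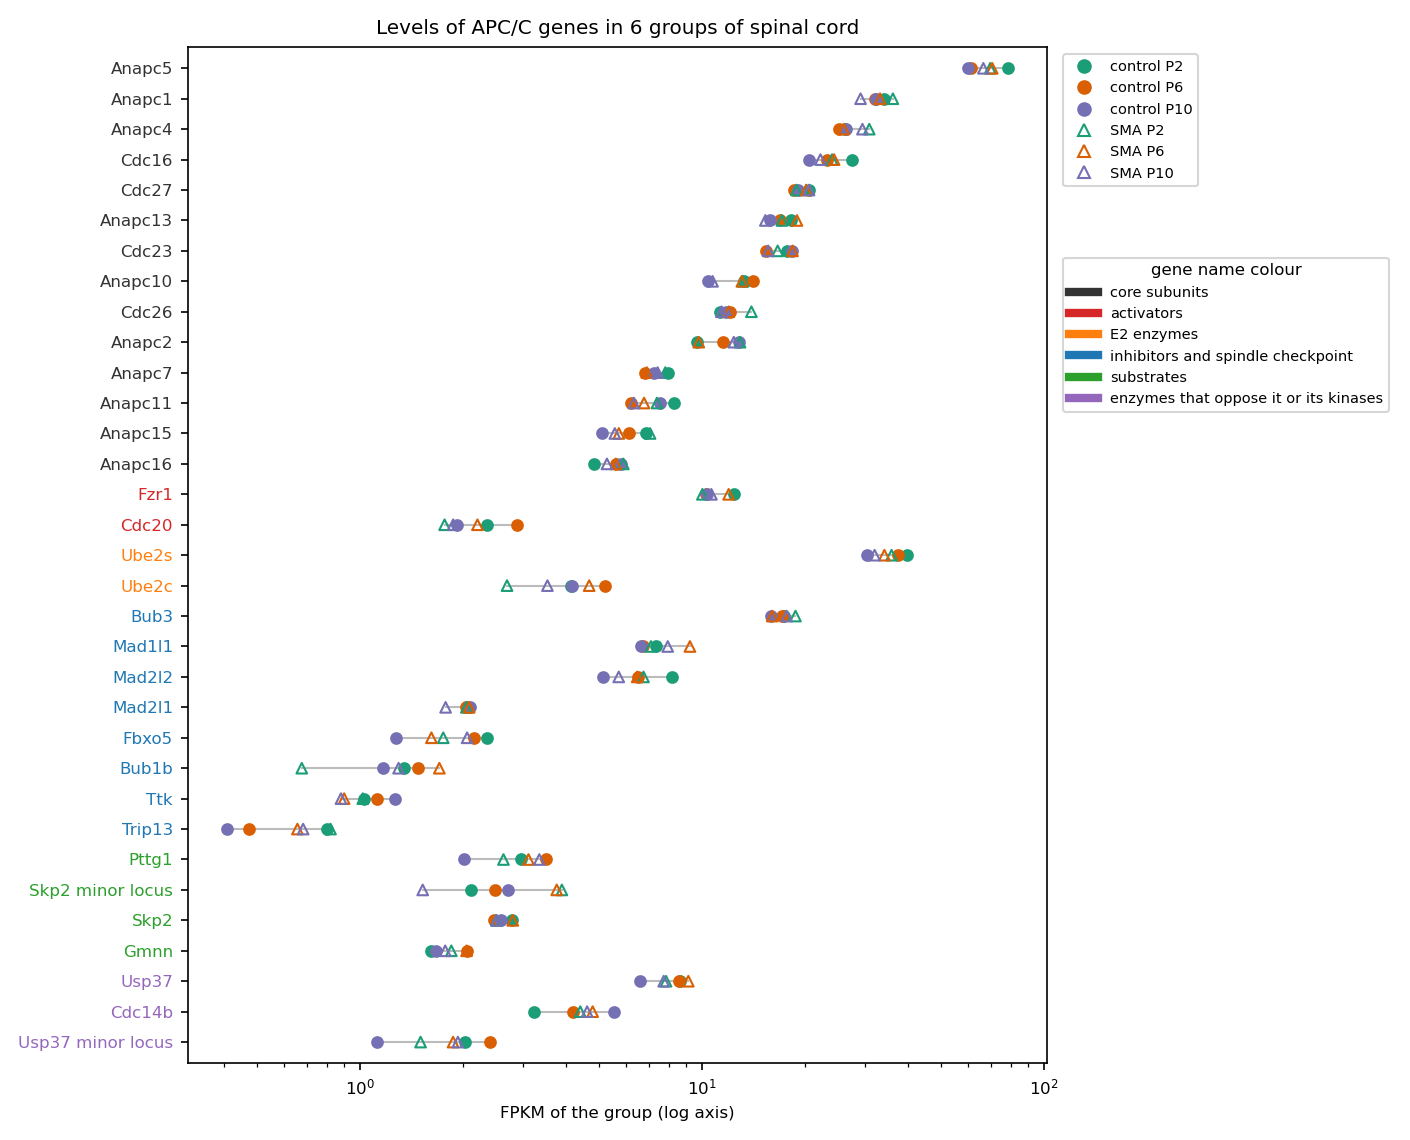
FPKM (log axis) of every row of the APC/C system in the 6 groups, ordered by role and by mean level; filled circles are control, open triangles SMA, colours the ages, and the grey line joins the lowest and highest group. Core subunits sit between FPKM 4.83 and 78.6 with short lines, while Cdc20, Ube2c, 5 of 8 inhibitors and checkpoint genes and the substrates lie further left, most with longer ones.

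Of the activators, Fzr1 was the more abundant transcript. Fzr1 was at FPKM 12.4, 10.3 and 10.4 in control at P2, P6 and P10 and at 10.04, 11.98 and 10.7 in SMA. Its values lay in a range of 1.24 times, like those of the core subunits, with 251 to 321 estimated fragments per group. The genotypes crossed: SMA was lower at P2 (log2 ratio -0.31, SE 0.61, 95% interval -1.49 to 0.88), higher at P6 (0.22, SE 0.63) and close to control at P10 (0.04, SE 0.59). Cdc20 was at FPKM 2.35, 2.88 and 1.92 in control and at 1.77, 2.21 and 1.88 in SMA. Each SMA value was below the control value of its age, but a group held only 24.3 to 38.9 estimated fragments and the log2 ratio at P2 was -0.41 with a 95% interval of -4.88 to 4.06. A difference inside those bounds was not detectable with this interval.

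The E2 enzymes split in the same way as the activators. Ube2s, which lengthens the ubiquitin chain, was the second most abundant member, at FPKM 39.8, 37.4 and 30.3 in control at P2, P6 and P10 and at 35.8, 34.2 and 32.0 in SMA. It declined in value at every step of age in both genotypes. Ube2c, which starts the chain and is itself a product of dividing cells, was at 4.14, 5.22 and 4.16 in control and at 2.70, 4.69 and 3.54 in SMA. All SMA values were lower at the matched age. At P2 the log2 ratio was -0.62 (SE 1.07, 95% interval -2.72 to 1.48), at P6 -0.16 (SE 0.70) and at P10 -0.23 (SE 0.71). Across the 3 ages the difference was -0.26 on the log2(FPKM + 1) scale with an SE of 0.11 (limma, adjusted p = 0.999), the smallest p of any member in that fit.

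Inhibitors and checkpoint genes ran from a mean FPKM of 0.642 for Trip13 to 17.2 for Bub3. Bub3, a kinetochore adaptor with other roles in transcription, was at FPKM 17.4, 17.2 and 16.0 in control at P2, P6 and P10 and at 18.8, 16.1 and 17.7 in SMA, but its row spanned 30 other protein-coding genes and its interval reached 0. Mad1l1, which recruits Mad2 to the kinetochore, was at 7.33, 6.74 and 6.65 in control and at 7.10, 9.23 and 7.95 in SMA. Its SMA value at P6 was the highest of the 6, and the log2 ratio there, 0.45 (SE 0.65), had the smallest p of the 32 rows tested at that age. Mad2l2, which binds Fzr1 and also serves in DNA repair, was at 8.19, 6.52 and 5.15 in control and at 6.75, 6.48 and 5.72 in SMA. It fell in value with age in both genotypes. The log2 ratio of P10 to P2 was -0.67 (SE 1.34) in control and -0.24 (SE 1.26) in SMA. Its interval reached 0 in each group, and its row spanned 3 other protein-coding genes. Mad2l1, the checkpoint protein Mad2 that binds Cdc20, was nearly flat, at 2.05, 2.04 and 2.099 in control and at 2.05, 2.09 and 1.78 in SMA.

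Members with low levels varied the most. Bub1b, the BubR1 component of the checkpoint complex, was at FPKM 1.35, 1.48 and 1.17 in control at P2, P6 and P10 and at 0.677, 1.71 and 1.30 in SMA. Its SMA value at P2 was the lowest of the 6, and the log2 ratio of -0.99 had an SE of 2.04, while from the estimated fragments it was -0.59. The small excess in SMA at P6 and P10 turned to -0.20 and -0.37 from estimated fragments. Fbxo5 (Emi1), which blocks the APC/C before mitosis, was at 2.36, 2.16 and 1.28 in control and at 1.76, 1.62 and 2.06 in SMA. SMA was thus below control at P2 and P6 and above it at P10, with a log2 ratio of 0.69 there (SE 0.87, 95% interval -1.02 to 2.39) that was 0.46 from estimated fragments. Its change from P2 to P10 in SMA was 0.23 in FPKM and -0.08 from estimated fragments. Ttk, the kinase that starts checkpoint signalling, was at 1.03, 1.12 and 1.27 in control and at 1.02, 0.901 and 0.882 in SMA. Control values in FPKM went up with age and SMA values went down, but the control change from P2 to P10, 0.30 on the log2 scale, was -0.13 from estimated fragments, and the SE was 1.04. Trip13, the ATPase that takes the checkpoint complex apart, was under FPKM 1 in every group, at 0.805, 0.475 and 0.409 in control and at 0.822, 0.658 and 0.684 in SMA, and was not tested.

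The substrates had low levels too. Pttg1 (securin), which holds back separase, was at FPKM 2.96, 3.50 and 2.02 in control at P2, P6 and P10 and at 2.63, 3.11 and 3.35 in SMA. As with Fbxo5, SMA lay below control at P2 and P6 and above it at P10, with a log2 ratio of 0.73 (SE 1.08) there, on 10.8 to 19.1 fragments per group. Gmnn (geminin), an inhibitor of replication licensing, was at 1.62, 2.06 and 1.67 in control and at 1.85, 2.05 and 1.78 in SMA. Its highest value was at P6 in both genotypes, but on only 13.6 to 16.9 fragments per group. Skp2, the F-box protein of another ubiquitin ligase, was at 2.79, 2.46 and 2.59 in control and at 2.51, 2.80 and 2.51 in SMA. The minor Skp2 row rested on 3.64 to 9.96 fragments and ran from 1.53 to 3.90, so no pattern is read from it.

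Of the opposing enzymes, Usp37, a deubiquitinase that protects cyclin A from Fzr1, was at FPKM 8.66, 8.60 and 6.60 in control at P2, P6 and P10 and at 7.86, 9.13 and 7.74 in SMA. Its minor row, on 2.85 to 6.11 fragments, ran from 1.12 to 2.40. Cdc14b, a phosphatase that acts against mitotic kinases and activates Fzr1, shares its row with Aaed1, so its values cannot be assigned to Cdc14b alone. It had the greatest ratio of P10 to P2 in control among the 32 rows tested, at FPKM 3.23, 4.19 and 5.55. Its SMA values were 4.41, 4.80 and 4.62, which lay above control at P2 and P6 and below it at P10. In control the log2 ratio of P10 to P2 was 0.78 (SE 0.63, 95% interval -0.45 to 2.01), the smallest p of any member in any comparison of 2 groups. In SMA it was 0.07 (SE 0.62), and the difference between those changes was -0.72 (SE 0.89, 95% interval -2.45 to 1.02).

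**Figure D2:**
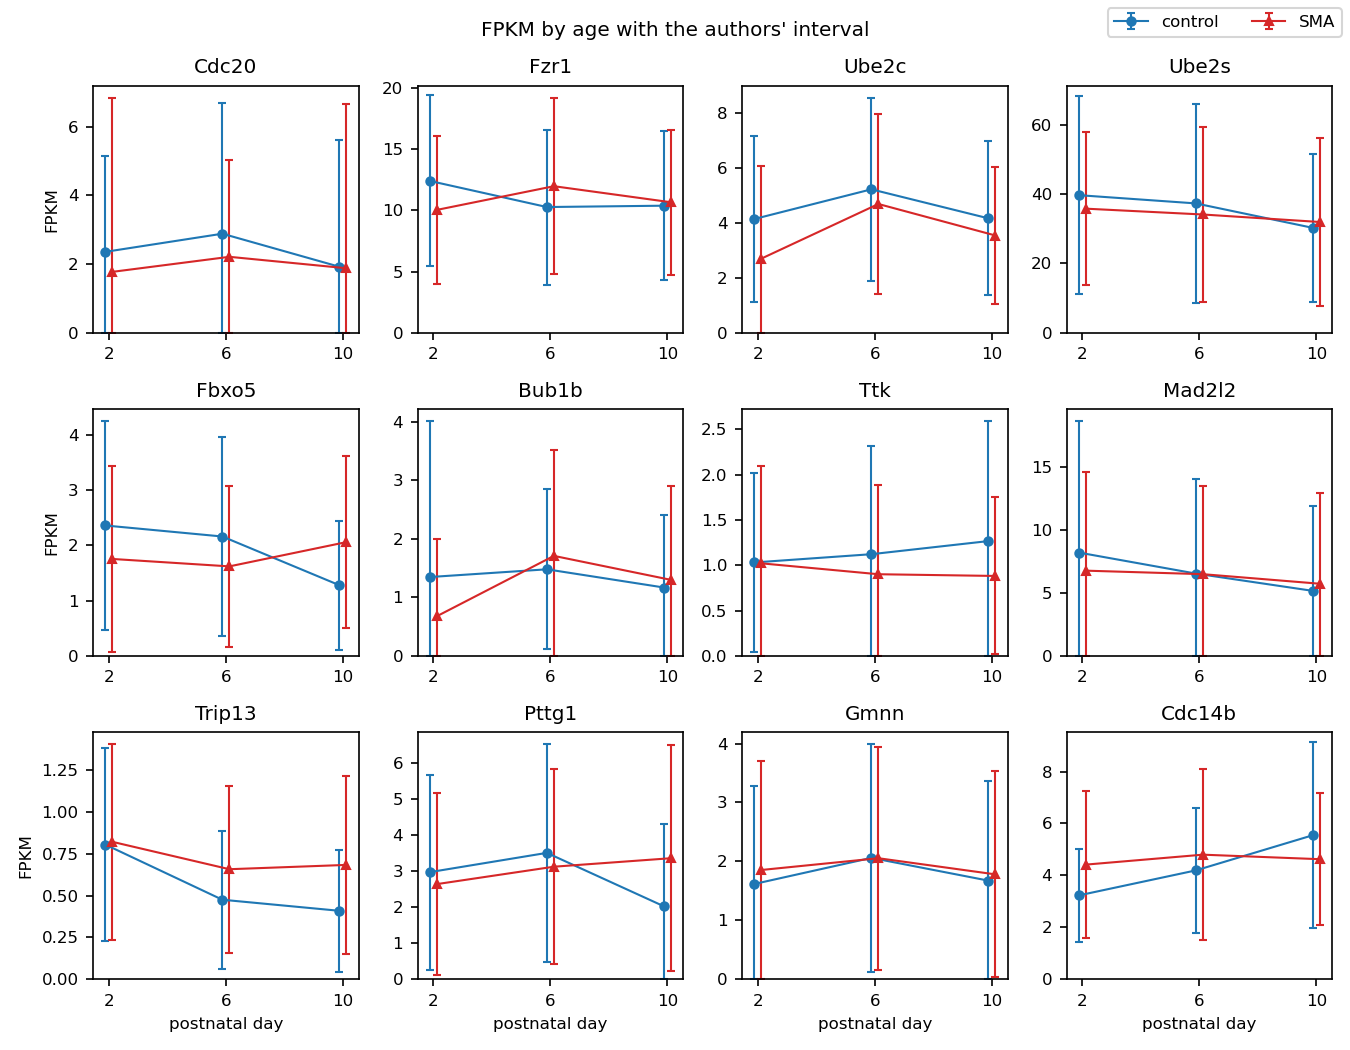
FPKM against postnatal day for 12 members, control as blue circles and SMA as red triangles, with the authors' interval as bars and each panel starting at 0. Intervals of the genotypes overlap at every age in each panel. Cdc20, Ube2c and Ttk in SMA lie below control at all 3 ages. Ube2s, Fbxo5, Mad2l2, Pttg1, Gmnn and Cdc14b cross between P6 and P10.

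The first comparison asked whether SMA and control cords differed in these genes at each age. Each locus with FPKM 1 or more in a compared group had its log2 ratio set against its SE in a two-sided z test, with p-values adjusted over all loci. At P2, 0 of 32 rows tested were called at an adjusted p under 0.05, and the background was 0.126% of all loci. At P6, 0 of 32 were called against 0.0458%, and at P10 0 of 32 against 0.0397%. Members with an unadjusted p under 0.05 also numbered 0 at each age. Over all loci there were 142 of 19114 at P2, 33 of 19631 at P6 and 43 of 20157 at P10. The members' smallest unadjusted p was 0.471 at P2 (Cdc14b), 0.483 at P6 and 0.429 at P10 (Fbxo5). With so few calls in the whole table, a count of 0 is near the background. The authors' intervals are wide: the median SE of a member's log2 ratio over the 3 ages was 0.95, 0.90 and 0.87, and that of the core subunits was 0.73 to 0.76.

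In values alone, at P2 22 of 32 members were below control in SMA and 10 above, against 50.96% of all 19114 loci below. The median log2 ratio was -0.09 for members and -0.01 for all loci, and from estimated fragments the members' median was -0.05. Both activators, both E2 enzymes and 6 of 7 inhibitors and checkpoint genes were on the lower side in FPKM. Of those 6, Mad1l1 turned to 0.10 from estimated fragments. Mad2l1 and Ttk were only at -0.002 and -0.01, and Mad2l1 was at 0.004 relative to the median locus. Core subunits were split, 8 lower and 6 higher (median -0.02, from -0.19 for Cdc16 to 0.42 for Anapc2). At P6, 15 were below and 17 above (median 0.03, all loci 0.07), and at P10, 14 below and 18 above (median 0.04, all loci 0.04). Relative to the median locus, the members' median at P6 was -0.04 and at P10 -0.002, so its sign at those ages depends on the scaling, and from estimated fragments it was -0.01 at P6. Differences past 1.5-fold were seen in 3 of 32 members at P2, in 1 at P6 and in 4 at P10, against 13.2%, 10.4% and 14.3% of all loci. These were Ube2c and Bub1b (lower) and the minor Skp2 row (higher) at P2, the minor Skp2 row (higher) at P6, with Fbxo5, Pttg1 and the minor Usp37 row (higher) and the minor Skp2 row (lower) at P10. From estimated fragments, Fbxo5 at P10 and the minor Skp2 row at P6 were not past 1.5-fold.

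**Figure D3:**
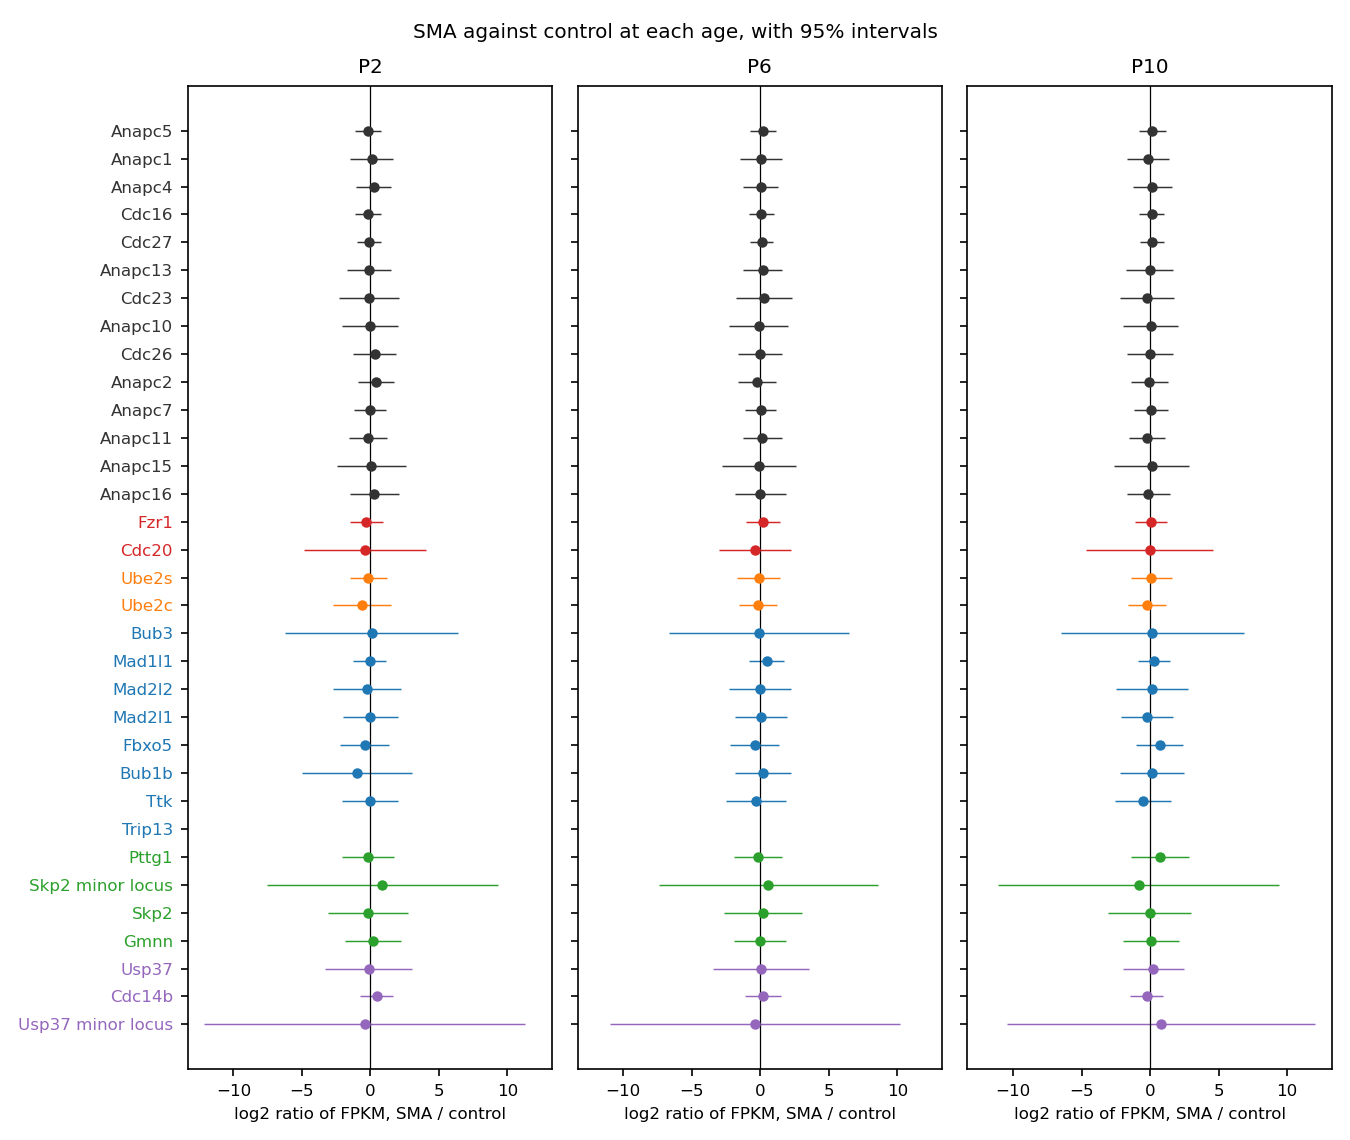
Log2 ratio of FPKM, SMA over control, for each row at P2, P6 and P10, with 95% intervals; colours give the role as in the plot of levels, and Trip13 was not tested. Every interval includes 0, the core subunits lie between -0.25 and 0.42, and the widest bars belong to Bub3 and the minor rows of Skp2 and Usp37.

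A fit over all 6 groups (limma on log2(FPKM + 1), age as a factor) took the ages as repeats of the genotype difference. It called 0 of 32 members, with a background of 0.00455%, and 0 had an unadjusted p under 0.05, against 2.05% of loci. Members were split 16 higher and 16 lower, with a median of 0.003. Without the P10 groups, where Smn1 was near control, it again called 0 of 32, and 1 member had an unadjusted p under 0.05, as did 1344 of 20720 loci.

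The second comparison followed the system from P2 to P10. In control cords, 0 of 32 members were called, against 0.631% of all loci, and in SMA cords 0 of 32 against 0.0602%. In either genotype 0 members had an unadjusted p under 0.05, against 701 of 19956 loci in control and 66 of 19938 in SMA. Past 1.5-fold were 4 members in control (Cdc14b higher, and Fbxo5, Mad2l2 and the minor Usp37 row lower) against 29.1% of loci, and 2 in SMA (Bub1b higher and the minor Skp2 row lower) against 18.9%. From estimated fragments the log2 ratio of Bub1b in SMA was 0.55, not past 1.5-fold. By value, 21 of 32 members were lower at P10 than at P2 in each genotype, against 48.2% of all loci in control and 43.3% in SMA. The median log2 ratio was -0.14 in control, where that of all loci was 0.02, and -0.07 in SMA, where it was 0.05. The core subunits had medians of -0.12 in control and -0.14 in SMA, with 9 and 13 of 14 lower.

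The genotypes can be set side by side over age. Of the 33 rows, 13 (39.4%) were lower at P10 in both genotypes and 2 (6.06%) higher in both, compared with 26.04% and 34.7% of 21436 loci. Among the 14 core subunits these counts were 8 and 0. None of these rows was called, and some signs turn with estimated fragments, such as that of Anapc13 in control. In the 6-group fit the difference of P10 from P2 was called in 0 of 32 members, with a background of 0.0137%, and 3 had an unadjusted p under 0.05 against 15.4% of loci. All 3 were lower: Mad2l2 by -0.39 (SE 0.14), Anapc15 by -0.33 (SE 0.12) and Anapc10 by -0.30 (SE 0.11), with limma adjusted p-values of 0.304, 0.307 and 0.308. Without the P6 groups 0 members had an unadjusted p under 0.05, against 2095 of 21293 loci.

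Whether the genotype difference itself changed between P2 and P10 was also tested. The z test called 0 of 32 members, against 0.0574% of loci, and 0 had an unadjusted p under 0.05, against 187 of 20916 loci. The greatest changes outside the minor rows were in Bub1b, at 1.15 on the log2 scale (SE 2.37), Fbxo5, at 1.12 (SE 1.27), and Pttg1, at 0.90 (SE 1.45). In each of these the SMA value in FPKM lay below control at P2 and above it at P10, though for Bub1b estimated fragments put it below at both. This contrast uses the group labelled SMA at P10, and it uses the same 4 groups as the comparisons above.

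The last measure was the variation over the 6 groups. The highest group exceeded the lowest by a median of 1.24 times in core subunits (1.10 to 1.38), and 0 of 14 went past 1.5 times. Fzr1, Ube2s, Bub3, Mad2l1, Skp2 and Gmnn lay within the range of the core, from 1.14 to 1.31 times. Across all 33 rows the median was 1.34, with 10 past 1.5 times, and across all 21436 loci it was 1.53, with 52.5% past 1.5 times. In the table as a whole the spread differed with the level: of loci with a mean FPKM of 5 or more, 26.5% went past 1.5 times, and of those under 5, 72.9%. By the same split, 1 of 20 members at 5 or more (Mad2l2, 1.59 times) and 9 of 13 under 5 (69.2%) did so. All 14 core subunits had a mean of 5 or more, where the median was 1.33 for all loci and 1.28 for members.

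**Figure D4:**
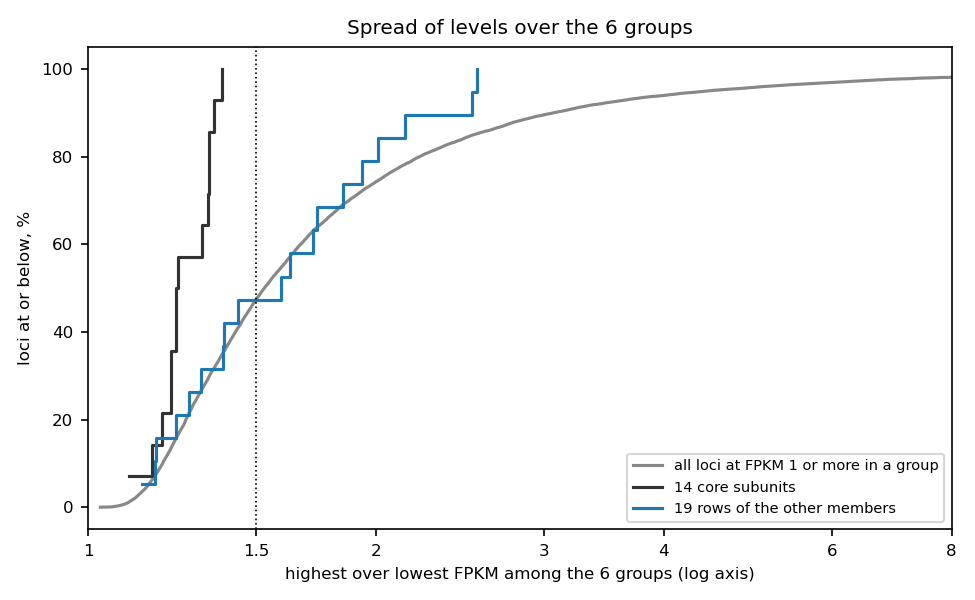
Cumulative share of loci (%) against the ratio of highest to lowest FPKM among the 6 groups (log axis, cut at 8), for 14 core subunits, the 19 rows of the other members (Trip13, under FPKM 1, included) and all loci; the dotted line is 1.5 times. The core curve ends at 1.38, before the dotted line, while the other members follow the curve of all loci up to about 1.8 times.

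Genes around the APC/C that are not among the 31 gave a frame for these values. They were 25 mitotic substrates, 15 checkpoint and kinetochore genes, 7 partners of the SCF ligase, 7 other E2 and ubiquitin genes, 13 substrates described in neurons and 22 proliferation genes, in 90 rows. In SMA against control the z test called 0 of the 81, 82 and 81 rows tested at the 3 ages. Of all loci it called 0.126%, 0.0458% and 0.0397%. Those with an unadjusted p under 0.05 numbered 1, 0 and 1, against 142 of 19114, 33 of 19631 and 43 of 20157 loci. They were Anln, an actin-binding protein of cytokinesis that is also made by oligodendrocytes, at P2 and Cdkn1a, the cell cycle inhibitor p21, at P10. Smn1, in these lists, was not called at P2 despite a log2 ratio of -7.01 (SE 66.5), on 25.6 fragments in control and 0.202 in SMA. At P6 it was at 0 in SMA and was not tested. A count of 0 therefore cannot show that a gene with few fragments was unchanged. Anln was at FPKM 0.943, 2.37 and 5.59 in control at P2, P6 and P10 and at 3.01, 1.97 and 3.84 in SMA, an order of groups like that of the oligodendrocyte markers. From P2 to P10 in control it rose by 2.57 on the log2 scale (SE 0.54, z test adjusted p = 0.000849). It was the only row called among the 82 of these lists tested there, against 0.631% of all loci.

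By list, the median log2 ratio of SMA to control was -0.15 at P2, -0.08 at P6 and 0.07 at P10 for mitotic substrates, -0.18, 0.05 and 0.10 for checkpoint and kinetochore genes, and -0.14, -0.11 and 0.06 for proliferation genes. At P2, 12 of 20 mitotic substrates, 7 of 13 checkpoint and kinetochore genes and 16 of 21 proliferation genes were below control in value, against 50.96% of all loci. SCF partners had medians of 0.05, 0.26 and 0.14, and other E2 and ubiquitin genes of -0.01, 0.05 and 0.05. Substrates described in neurons, a list that includes Smn1, had medians of 0.02, 0.10 and 0.004.

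**Figure D5:**
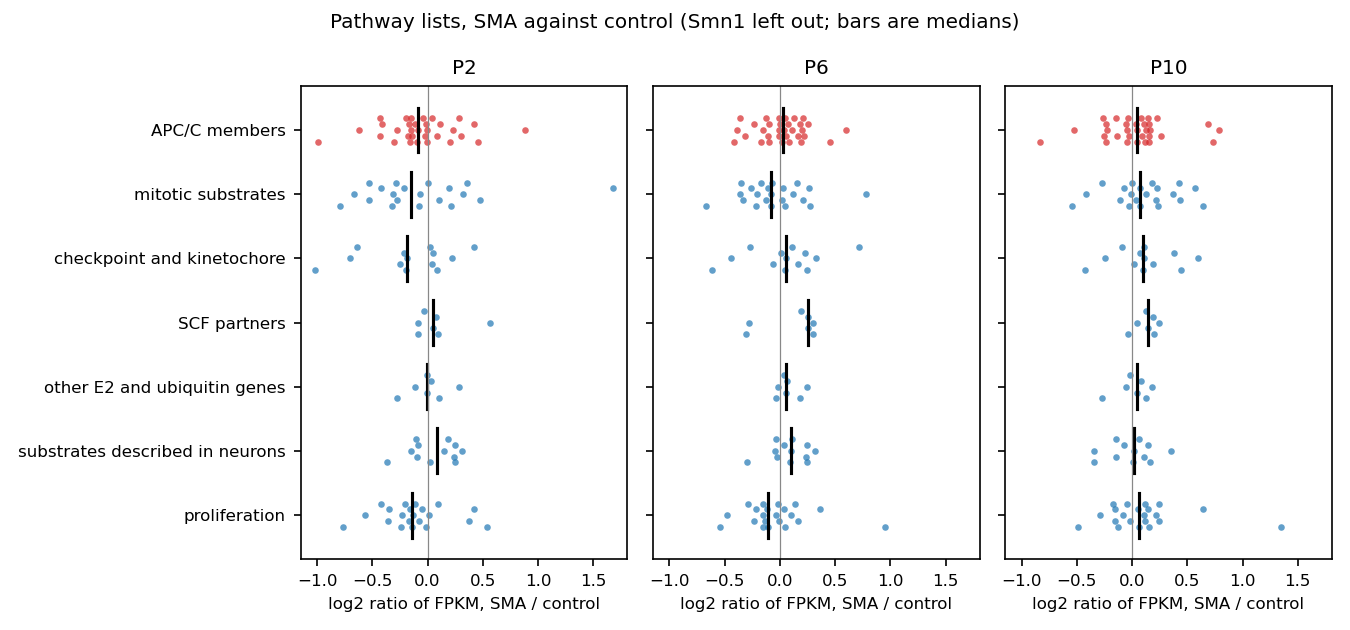
Log2 ratio of FPKM, SMA over control, for each row tested in the APC/C system (red) and in 6 surrounding gene lists (blue) at P2, P6 and P10; black bars are medians, and Smn1 is left out of the neuronal substrates. Medians of mitotic substrates, checkpoint and kinetochore genes and proliferation genes lie at -0.15, -0.18 and -0.14 at P2 and between 0.06 and 0.10 at P10.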

How the data were processed

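RNA of 18 libraries in 6 groups was analysed from tables in which the authors had combined the libraries of each group. Per the submitters' processing notes, FastQC, Bowtie2 2.2.4, TopHat2 2.1.1, Picard, Cufflinks 2.2.1 and Cuffdiff were used with build GRCm38; annotation, strand setting and normalization are not given in the sources used here. The deposited values are FPKM with a lower and an upper bound, and expected counts, the fragments estimated by the authors for each group, with a variance.

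Log ratios of FPKM were tested by z tests, two-sided. The SE of a level was taken as upper bound minus FPKM, divided by 1.96. Loci had FPKM 1 or more in a compared group and more than 0 in each, and Benjamini-Hochberg adjustment ran over all of them. These p-values cover the spread in the authors' model only, and the labels do not say whether libraries came from separate animals. limma 3.58.1 in R 4.3.3 was fitted to log2(FPKM + 1) of the 6 groups with age and genotype, leaving 2 residual degrees of freedom. Both tests were also run on simulated data. For the z test the simulated noise was drawn from its own SEs, so that run cannot show whether those SEs fit these data. Symbols were matched to GENCODE M21; each of the 33 rows overlapped its protein-coding gene, and 16 spans held another. Other steps used pandas 2.3.3, scipy 1.17.1 and Python 3.11.15. All 31 members were named. The members, gene lists and tests were chosen with earlier results of these data known, and the 1.5-fold description was added after seeing the data. Alternatives changed the value, filter, pseudocount, scaling, interval, test and ages.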

Additional observations from a re-analysis of the deposited data

How the results depend on the processing

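The count of members called was 0 in each of the 8 comparisons and stayed 0 under every alternative run. Over all loci, calls ranged from 19 to 123 for SMA against control at P2 (24 as reported), from 0 to 26 at P6 (9) and from 0 to 22 at P10 (8). They ranged from 108 to 920 for P10 against P2 in control (126), from 2 to 44 in SMA (12) and from 10 to 163 for the change of the difference (12). In limma the ranges were 0 to 15 for genotype (1) and 0 to 5 for age (3). Only other values or another scaling can turn the sign of a z test ratio. Of the members' ratios, 35 of 192 turned with estimated counts and 13 of 192 with centring on the median locus. Moves over 1 SE numbered 0, but with SEs this wide that count says little about stability. With estimated counts the largest move was 0.92 on the log2 scale. In limma, 11 of 64 member values turned sign with estimated counts, 6 of 64 with centring, 13 of 32 without P2, 6 of 64 without P6 and 9 of 32 without P10, and 22 moved by more than 1 SE. Cdc20, Ube2c, Fbxo5, Ttk, Trip13, Pttg1, Gmnn and the minor rows of Skp2 and Usp37 had under 40 estimated fragments in every group. Interval width did not follow fragments alone, since at P2 the SE of the log2 ratio was 3.22 for Bub3 and 1.06 for Gmnn. No paired analysis was possible because the tables hold 1 value per group and no column carries a replicate number, so leaving out a replicate was not run either. The test of intervals that do not overlap was not run for the change of the difference.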
